A study of Mus musculus with 6 samples.

Results

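The proteasome subunit genes were examined in bone marrow macrophages with and without RKIP (Raf kinase inhibitor protein, encoded by Pebp1). Members were the genes of the deposited table whose symbol starts with Psma, Psmb, Psmc, Psmd, Psme, Psmf or Psmg followed by a digit, and Pomp. Psmb8, Psmb9 and names with -ps were left out. The rule found 48 of the 27458 genes, of which 16 belong to the core particle, 23 to its regulators and 8 to assembly, and 47 had a mean of at least 1 FPKM and were tested. Psmc3ip, which met the name rule, is known as a recombination cofactor and is no subunit; it lay between 0.394 and 1.34 FPKM and was not tested. FPKM are fragments scaled by transcript length and library total, so levels of different genes can be set side by side on that scale.

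RNA was measured in 6 libraries of primary mouse macrophages from bone marrow, treated with M-CSF (the growth factor that macrophages depend on), 3 labelled WT and 3 labelled RKIP KO (KO below). Both genotypes had the same M-CSF treatment. The strain and age of the mice, the knockout allele, the length of the culture and the number of animals behind each library were not given in the sources used here. The p-values therefore rest on the variation among the 3 libraries of a genotype, which the fit moderates by that of the other tested genes. That variation may be technical. Total estimated counts were 53188659 to 55255365 in WT and 63607276 to 70059042 in KO.

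Pebp1 was 0 in every KO library and had a mean of 37.2 FPKM in WT. All 8 macrophage markers were found (2 rose and 4 fell), with a summed level of 20446 to 21947 FPKM in WT and 18458 to 18716 in KO. Most of that sum came from 1 marker with a WT mean of 19286 FPKM, where the median of the 8 was 227 FPKM. The median log2 fold change (KO over WT) of the 8 was -0.04. The 5 B cell markers and the 2 T cell markers with a row summed to at most 0.526 FPKM in any library. Other cell markers moved with genotype or stood high. The 9 neutrophil markers summed to 67.8 to 154 FPKM in WT and 2.98 to 3.29 in KO, and all 7 that were tested fell. The 5 stromal markers summed to 903 to 1002 FPKM in WT and 875 to 998 in KO, and 2 of them fell. Of 5 proliferation markers 4 fell, with a sum of 47.6 to 50.2 FPKM in WT and 37.9 to 46.2 in KO. No defining marker of the neutrophil, stromal or proliferation list was at 0 throughout a genotype, and the part of these cells in the proteasome results was not tested. In bulk RNA, fewer cells of a type and less RNA per cell cannot be told apart.

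The proteasome breaks down proteins tagged with ubiquitin. Its core particle is a barrel of alpha rings outside and beta rings inside, and the proteolytic sites sit on the beta subunits encoded by Psmb5, Psmb6 and Psmb7. In immune cells these can be exchanged for the inducible subunits encoded by Psmb8, Psmb9 and Psmb10, which shape the peptides shown on MHC class I. The regulatory particle, with its ATPase ring and its non-ATPase lid and base subunits, binds the tagged protein, unfolds it and feeds it into the core. Other caps (the Psme products) open the core without ATP, and dedicated chaperones assemble the rings. Transcription of the subunit genes as a set is known to follow the factor encoded by Nfe2l1.

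Most proteasome genes had slightly lower RNA in macrophages without RKIP. Of the 47 tested members 34 fell, 1 rose and 12 did not pass the test (edgeR quasi-likelihood test, Benjamini-Hochberg adjusted p under 0.05). Over all 11636 tested genes 19.4% fell and 20.3% rose. The median log2 fold change (KO over WT) was -0.22 for the members and -0.01 for all tested genes, and 44 members had a negative value. The log2 values use a further scaling between libraries (TMM) that the FPKM lack, so the 2 can differ in sign. Psmb1, Psmc6 and Psmd1 had negative log2 values with slightly higher mean FPKM in KO (19.1 against 18.9 in WT for Psmb1). In 30 members every KO library lay below every WT library, against 19.1% of all tested genes, and in 1 member every KO library lay above, against 32.4%. The changes were small. Psmb5 fell by 46.9%, and the other falls past the test ran from 8.60% (Psme3) to 27.1% (Psmb6). Libraries of a genotype lay close together, with a median coefficient of variation over the members of 3.46% in WT and 3.81% in KO.

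**Figure D1:**
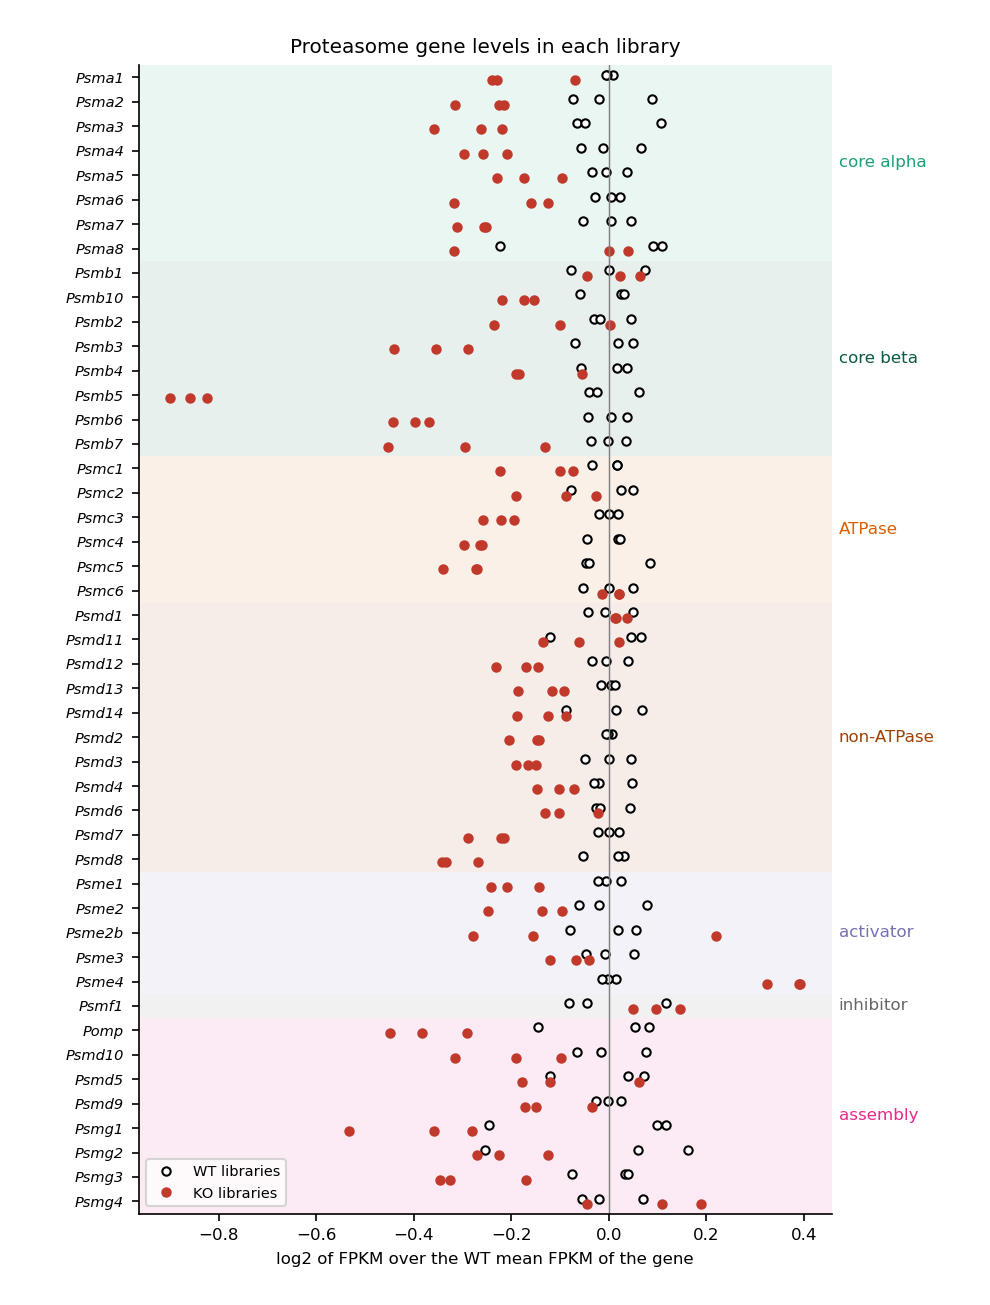
Level of each of the 47 tested proteasome genes in each library, as log2 of its FPKM over the mean FPKM of the 3 WT libraries, grouped by role. Open circles are WT and red circles KO libraries; in 30 genes all red circles lie left of all open ones, Psmb5 lies farthest left, and Psme4 is the gene with all red circles to the right.

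Transcript length moved with the fold change and with this count. Genes with short transcripts were lower and genes with long transcripts higher in KO across the whole table. When tested genes were split by length into 10 equal classes, the class of 38 to 966 bp had a median log2 value of -0.32 and that of 6575 to 40378 bp one of 0.20. The tested members had a median length of 1883 bp, against 3151 bp for all tested genes. Among genes under 2000 bp, 25 of 30 tested members and 1183 of 3145 tested genes fell. Among longer genes 9 of 17 members and 1068 of 8482 tested genes fell. Removing, library by library, the trend of counts on length and GC content left 18 members lower and 3 higher, and the median log2 value was -0.11. With it 14.6% of all tested genes were lower and 17.0% higher, with a median of 0.01. Of the 34 falls, 15 also passed as lower with the correction, and 3 members passed as lower only with it. Over all tested genes, 1248 of the 2253 falls also passed with the correction, and 450 genes passed as lower only with it. When the median length of a gene's coding transcripts replaced that of its longest transcript, 20 members were lower and 1 higher, against 15.2% and 19.6% of all tested genes. That median can lie far below the longest transcript. It was 657 against 6491 bp in Psme4 and 659 against 3001 bp in Psmd2. In Psme1 it was 711 against 1986 bp, and in Psmb9 529 against 2884 bp. Which length the measured RNA had was not tested. Whether the length trend comes from the cells or from the RNA and libraries was not tested. Values with the correction are given below as corrected log2 fold changes.

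**Figure D2:**
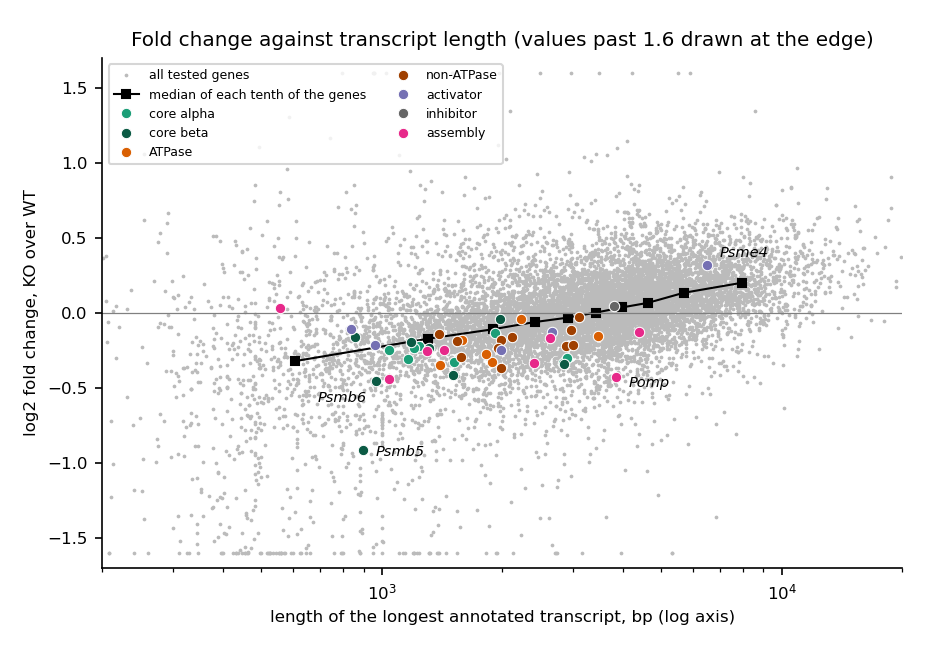
Log2 fold change (KO over WT) against the length of the longest annotated transcript (log axis) for all tested genes in grey and the proteasome members in colour by role. Black squares are the medians of 10 equal classes of genes by length, which run from -0.32 to 0.20; values past 1.6 are drawn at the edge, and Psmb5, Psmb6, Pomp and Psme4 are named.

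Most core particle genes fell, and they had the shortest transcripts of the 3 main roles (median 1275 bp). Of the 16 genes 14 fell and 2 did not pass (edgeR). Their median log2 fold change was -0.28. The FPKM of the 16 genes summed to 472, 462 and 455 in the WT and 387, 381 and 385 in the KO libraries, so the genotypes did not overlap. Without Psmb5 the sums were 417, 403 and 399.6 in WT and 356, 351 and 353 in KO. With the correction 6 of the 16 were lower and 1 was higher, and the median was -0.07.

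Of the 8 alpha ring genes 7 fell, all within a narrow range of log2 fold changes from -0.33 to -0.22. The alpha rings form the gates of the barrel. Psma7 was at 21.8, 20.4 and 21.2 FPKM in WT and 17.7, 17.8 and 17.1 in KO (log2 fold change -0.33 ± 0.05, approximate standard error; edgeR, adjusted p = 0.000266). All 3 KO libraries lay below WT, and the corrected value was -0.15 (adjusted p = 0.0119). Psma2 stood at 20.4, 18.2 and 18.9 FPKM in WT and at 16.4, 15.4 and 16.5 in KO (-0.30 ± 0.05, adjusted p = 0.000992; corrected -0.40). It overlaps the gene AW209491 on the same strand, so a part of its reads is uncertain. Psma4 was at 29.4, 27.8 and 27.0 FPKM in WT and 23.5, 22.9 and 24.3 in KO (-0.31 ± 0.05, adjusted p = 0.000476). Its libraries did not overlap either, yet its corrected value of -0.08 did not pass (edgeR, adjusted p = 0.157). Psma4 did pass as lower at the median coding length (-0.17, edgeR, adjusted p = 0.0055).

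Psma3 was at 11.9, 10.6 and 10.7 FPKM in WT and 9.53, 9.25 and 8.64 in KO (-0.33 ± 0.07, edgeR, adjusted p = 0.00217). A processed pseudogene of it, Gm13835, matches a Psma3 transcript at 100% over its whole length and had a mean of 21.7 FPKM in WT and 22.6 in KO. Reads from the shared stretch cannot be told apart. With the counts of matched pseudogenes added, Psma3 stood at -0.24 (adjusted p = 0.00685). Psma1, Psma5 and Psma6 fell by 14.1% to 16.0%, and the corrected values of these 3 genes, from -0.03 to 0.04, did not pass. With the median coding length Psma1 passed as lower (-0.15, edgeR, adjusted p = 0.0153), and Psma5 and Psma6 did not pass. Psma8 encodes the alpha subunit of germ cell proteasomes. It was the lowest core gene, at 0.883, 1.10 and 1.11 FPKM in WT and 0.827, 1.03 and 1.06 in KO, with overlapping genotypes (-0.14, 95% interval -0.64 to 0.37).

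All 4 genes for proteolytic subunits among the members fell. Psmb5 had the most negative value of the tested members without the correction, with it, and with pseudogene counts added alone. It did not with the correction and pseudogene counts together. Psmb5 encodes the subunit with chymotrypsin-like activity, the main target of proteasome inhibitor drugs. Its level was 55.0, 59.0 and 55.6 FPKM in WT and 31.2, 30.3 and 31.9 in KO (log2 fold change -0.91 ± 0.06, edgeR, adjusted p = 7.25e-07; corrected -0.59, adjusted p = 2.13e-05). The KO libraries lay far below WT, with a narrow spread in both genotypes. Psmb5 (ENSMUSG00000022193) spans 54614119 to 54618022 of chromosome 14 (minus strand) in the deposited table.

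A near-identical copy of Psmb5 moved the other way. Gm3375, a processed pseudogene at 3181093 to 3181888 on the plus strand of chromosome 7, was at 1.496, 1.65 and 1.63 FPKM in WT and 13.1, 11.4 and 14.02 in KO, 7.74-fold higher (2.95 ± 0.15, edgeR, adjusted p = 1.29e-07). Its 796 bases hold the whole Psmb5 coding sequence: 787 of 795 aligned bases are identical, and the longest identical run is 194 bases. The stretch with the most differences is printed here because reads that cross it are among those that can separate the copies. Differences are in capitals, the sequences are from GENCODE M21, and positions are counted from 1 at the first base of the Psmb5 start codon. The window covers positions 381 to 470 and holds the substitutions T387A, C417T and T465C (Psmb5 base first, then Gm3375).
Psmb5: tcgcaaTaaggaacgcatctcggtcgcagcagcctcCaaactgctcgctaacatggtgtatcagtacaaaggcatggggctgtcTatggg
Gm3375: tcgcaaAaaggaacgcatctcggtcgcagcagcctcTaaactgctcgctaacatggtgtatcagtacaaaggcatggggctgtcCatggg
Of the estimated counts of both copies, Gm3375 held 2.35%, 2.43% and 2.54% in the WT and 27.1%, 25.0% and 28.0% in the KO libraries. The sum of both was 57.0, 61.2 and 57.8 CPM (counts scaled to library total) in WT and 41.2, 38.6 and 42.2 in KO. Summed, the KO libraries still lay below WT, by 29.3% in place of 46.9% (log2 fold change -0.50 ± 0.06 with matched pseudogene counts added, edgeR, adjusted p = 4.51e-05). With both the pseudogene counts added and the length and GC correction, Psmb5 stood at -0.17 (edgeR, adjusted p = 0.0344), with more negative values for Pomp (-0.43), Psma2 (-0.40) and Psmb7 (-0.39), among others. Which copy the reads came from in KO was not tested.

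**Figure D3:**
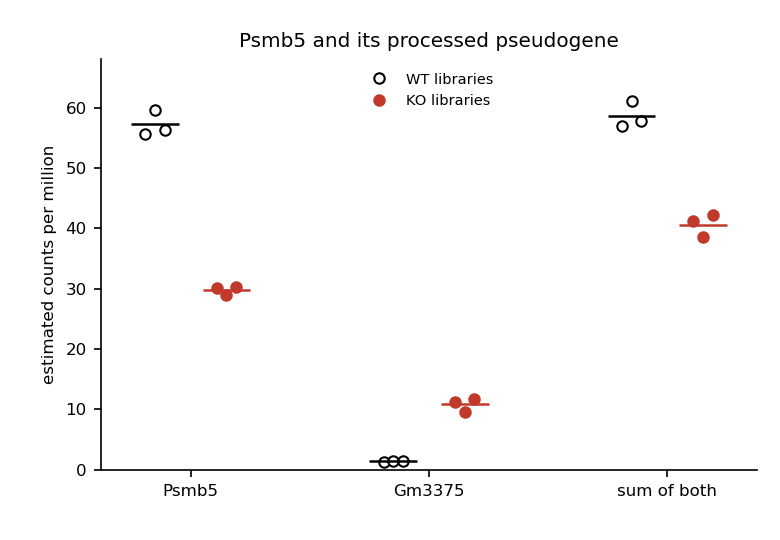
Estimated counts scaled to library total (CPM) for Psmb5, for its processed pseudogene Gm3375 and for their sum in each library (circles), with the mean of each genotype as a line. Psmb5 is lower and Gm3375 higher in all 3 KO libraries, and the sum of 38.6 to 42.2 in KO stays below the 57.0 to 61.2 of WT.

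Psmb6, the gene of the caspase-like site, was at 36.5, 35.3 and 37.3 FPKM in WT and 27.6, 28.2 and 26.7 in KO (-0.46 ± 0.05, edgeR, adjusted p = 2.42e-05). The genotypes were well apart, although the corrected value of -0.12 missed the threshold (adjusted p = 0.0568). Psmb6 did pass as lower at the median coding length (-0.25, edgeR, adjusted p = 0.000686). Psmb7, whose product has the trypsin-like site, was at 15.8, 16.2 and 15.4 FPKM in WT and 14.5, 11.6 and 12.9 in KO (-0.34 ± 0.08, adjusted p = 0.00411; corrected -0.39, adjusted p = 0.00135). Its KO libraries spread more widely, with a coefficient of variation of 11.1%. Psmb10, the inducible counterpart of Psmb7, was at 20.2, 20.2 and 19.0 FPKM in WT and 17.8, 17.6 and 17.0 in KO (-0.23 ± 0.06, adjusted p = 0.00931). Its corrected value was 0.00 (edgeR, adjusted p = 0.994).

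The inducible subunits outside the rule also fell. Psmb8 was at 18.2, 17.0 and 18.7 FPKM in WT and 13.8, 15.1 and 14.01 in KO (-0.38 ± 0.05, edgeR, adjusted p = 0.000178; corrected -0.25, adjusted p = 0.00207). Psmb9 stood at 4.51, 4.49 and 4.66 FPKM in WT and 3.82, 4.03 and 3.84 in KO (-0.28 ± 0.07, adjusted p = 0.00952). The call of Psmb9 was lost with the correction (-0.19, edgeR, adjusted p = 0.0554), and at the median coding length its value was 0.04 (adjusted p = 0.716). Set against its constitutive partner, Psmb8 over Psmb5 had an FPKM ratio of 0.319 ± 0.0260 in WT and 0.459 ± 0.0323 in KO (SD, n = 3; two-sided exact permutation test, p = 0.1, the smallest that 3 against 3 allows, and 0.167 adjusted over 5 ratios). That ratio carries the uncertainty of Psmb5 reads. For Psmb9 over Psmb6 it was 0.125 ± 0.00167 in WT and 0.142 ± 0.00284 in KO (SD, n = 3; exact permutation p = 0.1, adjusted 0.167). Psmb10 over Psmb7 overlapped, at 1.25 ± 0.0220 and 1.36 ± 0.146 (SD, n = 3; exact permutation p = 0.3, adjusted 0.375). These ratios were not corrected for the length trend. Psmb8 (1907 bp) and Psmb9 (2884 bp) have longer transcripts than Psmb5 (899 bp) and Psmb6 (966 bp). The corrected log2 fold change was -0.19 for Psmb9 and -0.12 for Psmb6. For Psmb8 it was -0.25, against -0.59 for Psmb5, or -0.17 for Psmb5 with pseudogene counts added. Psmb10 stood at -0.0008 and Psmb7 at -0.39.

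The structural beta genes differed among themselves. Psmb3 was at 21.6, 22.0 and 20.3 FPKM in WT and 16.7, 15.7 and 17.4 in KO (-0.41 ± 0.06, edgeR, adjusted p = 0.000231; corrected -0.21, adjusted p = 0.0118). Its libraries did not overlap. Psmb4 fell by 12.7%, with overlapping libraries and a corrected value of 0.09. Psmb2 was at 62.5, 59.3 and 59.8 FPKM in WT and 56.5, 60.6 and 51.5 in KO, where KO library 2 lay among the WT libraries. Its fall (-0.16 ± 0.06, edgeR, adjusted p = 0.0436) turned to a rise with the correction (0.21, adjusted p = 0.0145). With the median coding length Psmb2 did not pass in either direction (0.02, edgeR, adjusted p = 0.771). The call also ended without WT library 1, 2 or 3 or KO library 1 or 3 (adjusted p from 0.0628 to 0.149). Psmb1 was at 19.95, 17.9 and 18.9 FPKM in WT and 18.4, 19.3 and 19.8 in KO, with overlap (-0.04, 95% interval -0.17 to 0.09).

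Of the 23 regulatory genes 17 fell and 1 rose, and the median over the group was -0.18 (log2). With the correction 10 were lower and 1 higher, with a median of -0.11. The ATPase ring, which unfolds the substrate, had 5 falls in 6 genes. Its summed FPKM was 238, 234 and 237 in WT and 206, 206 and 212 in KO, without overlap.

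Psmc5 was at 48.6, 44.4 and 44.6 FPKM in WT and 36.2, 38.0 and 37.9 in KO (-0.35 ± 0.05, edgeR, adjusted p = 0.000223; corrected -0.12, adjusted p = 0.0567). It passed as lower at the median coding length (-0.18, edgeR, adjusted p = 0.0067). Psmc4 stood at 32.4, 31.0 and 32.5 FPKM in WT and 26.7, 26.6 and 26.0 in KO (-0.33 ± 0.04, adjusted p = 0.000167; corrected -0.19, adjusted p = 0.00286). Psmc3 was at 50.3, 51.7 and 51.1 FPKM in WT and 42.7, 44.6 and 43.8 in KO (-0.28 ± 0.04, adjusted p = 0.000203; corrected -0.13, adjusted p = 0.0132). In these 3 ATPase genes every KO library lay below every WT library. Psmc1, the most abundant member, was at 67.2, 69.6 and 69.5 FPKM in WT and 64.1, 59.0 and 65.3 in KO (-0.18 ± 0.05, adjusted p = 0.0112; corrected 0.00). Without WT library 3 its call ended (edgeR, adjusted p = 0.0513). Psmc2 fell by 10.1% with overlapping libraries, and its call ended without WT library 1 or 3 or KO library 1 or 2 (adjusted p from 0.0590 to 0.121), although its corrected value of -0.23 passed. Psmc6 did not pass, at 23.2, 21.6 and 22.4 FPKM in WT and 22.2, 22.7 and 22.7 in KO (-0.04, 95% interval -0.16 to 0.07), although its corrected value did (-0.24, edgeR, adjusted p = 0.00116).

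Among 11 non-ATPase subunits 9 fell, with a summed FPKM of 332, 330.2 and 328 in WT and 293, 293 and 296 in KO. Psmd8, a lid subunit, was at 62.8, 62.3 and 59.3 FPKM in WT and 48.5, 51.1 and 48.8 in KO (-0.37 ± 0.04, edgeR, adjusted p = 5.65e-05; corrected -0.24, adjusted p = 0.000503). Psmd7, which pairs with the deubiquitinase subunit encoded by Psmd14, was at 39.1, 39.6 and 38.4 FPKM in WT and 31.9, 33.5 and 33.7 in KO (-0.30 ± 0.04, adjusted p = 0.000147; corrected -0.11, adjusted p = 0.0379). Both genes were without overlap. Psmd12, a further lid gene, was at 22.6, 21.9 and 21.5 FPKM in WT and 19.5, 18.8 and 19.9 in KO (-0.23 ± 0.05, adjusted p = 0.00235), and its corrected value of -0.11 missed the threshold (edgeR, adjusted p = 0.0504). It passed as lower at the median coding length (-0.20, edgeR, adjusted p = 0.00346). Psmd3 stood at 17.7, 18.9 and 18.3 FPKM in WT and 16.0, 16.5 and 16.3 in KO (-0.22 ± 0.04, adjusted p = 0.00127; corrected -0.13, adjusted p = 0.0195), but at -0.05 with the median coding length (edgeR, adjusted p = 0.309). Psmd2, a scaffold of the base, fell by 13.99% (corrected -0.16, but 0.04 at the median coding length), and Psmd13, Psmd14, Psmd4 (a ubiquitin receptor) and Psmd6 fell by 9.12% to 12.1%. The corrected values of these last 4 did not pass. With the median coding length Psmd14 passed as lower (-0.19, edgeR, adjusted p = 0.0120), and Psmd13, Psmd4 and Psmd6 did not pass. Calls were also lost for Psmd14 without WT library 1 or 3 or KO library 2 or 3, for Psmd6 without WT library 2 or 3 or KO library 1 or 2, and for Psmd4 without WT library 3 (edgeR, adjusted p from 0.0575 to 0.138). Psmd1, the other base scaffold, was at 23.9, 24.8 and 23.3 FPKM in WT and 24.6, 24.2 and 24.3 in KO, within the WT range (-0.03, 95% interval -0.15 to 0.09). Psmd11 did not pass either (-0.11, 95% interval -0.27 to 0.05; corrected -0.19, edgeR, adjusted p = 0.0165).

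The activators were the role with a change in each direction, with 3 falls and 1 rise in 5 genes. Psme4, which encodes a single large protein that caps the core, rose. It was at 16.7, 16.5 and 16.4 FPKM in WT and 21.8, 20.8 and 21.7 in KO, 1.25-fold higher (0.32 ± 0.04, edgeR, adjusted p = 0.000166). All KO libraries lay above WT. Psme4 (ENSMUSG00000040850) is on the plus strand of chromosome 11 from 30771726 to 30880361, and its transcript of 6491 bp is the longest of the members. The corrected value was 0.12 (edgeR, adjusted p = 0.0244). It was 0.47 (adjusted p = 2.22e-06) at the median coding length, which for Psme4 is only 657 bp. The FPKM ratio of Psme4 to Psme3 was 0.591 ± 0.0239 in WT and 0.805 ± 0.0410 in KO (SD, n = 3; exact permutation p = 0.1, adjusted 0.167). It was not corrected for the length trend, and the transcript of Psme3 has 2664 bp (corrected log2 value -0.06).

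Psme1 and Psme2 encode the subunits of the interferon-inducible cap. Psme1 was at 38.4, 37.9 and 39.2 FPKM in WT and 34.9, 32.5 and 33.3 in KO (-0.25 ± 0.05, edgeR, adjusted p = 0.00120; corrected -0.12, adjusted p = 0.0395). At the median coding length it stood at -0.02 (edgeR, adjusted p = 0.704). Psme2 stood at 25.6, 23.3 and 23.9 FPKM in WT and 22.1, 22.7 and 20.4 in KO (-0.21 ± 0.06, adjusted p = 0.0178), without overlap, and its corrected value was 0.13 (adjusted p = 0.109). That call ended without WT library 1 or KO library 3 (edgeR, adjusted p = 0.0647 and 0.0707). Their ratio, Psme1 over Psme2, overlapped between the genotypes, at 1.59 ± 0.0788 in WT and 1.55 ± 0.102 in KO (SD, n = 3; exact permutation p = 0.6, adjusted 0.6). Psme2b, whose coding sequence is identical to that of Psme2 at 715 of 720 aligned bases, was at 29.0, 29.7 and 27.1 FPKM in WT and 25.7, 23.6 and 33.3 in KO, with the widest KO spread of the tested members (18.6%; -0.11, 95% interval -0.41 to 0.20). It also overlaps the gene 9930111J21Rik1 on the same strand, so the levels of Psme2 and Psme2b are uncertain. Psme3, the gene of the nuclear cap, was at 27.2, 29.1 and 27.9 FPKM in WT and 26.8, 27.3 and 25.8 in KO. Its libraries overlapped, and its fall (-0.13 ± 0.04, edgeR, adjusted p = 0.0348) did not pass with the correction (adjusted p = 0.283). The call also ended without WT library 2 or 3 or KO library 1 or 3 (adjusted p from 0.0538 to 0.137). Psmf1, an inhibitor of the core, was at 3.71, 4.26 and 3.81 FPKM in WT and 4.20, 4.07 and 4.34 in KO, with overlap (0.05, 95% interval -0.15 to 0.24).

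Of the 8 assembly genes 3 fell and 5 did not pass. Their median WT level was 5.94 FPKM against 22.7 for the core genes, and their median log2 fold change was -0.25. Pomp encodes the chaperone that helps the core particle mature and is then its first substrate. It was at 11.5, 11.8 and 10.05 FPKM in WT and 8.52, 8.15 and 9.08 in KO (-0.43 ± 0.07, edgeR, adjusted p = 0.000388; corrected -0.43, adjusted p = 0.000322). The KO libraries lay below WT, and the correction left its value where it was. Psmg1, a chaperone of the alpha ring, was at 6.08, 6.16 and 4.78 FPKM in WT and 3.92, 4.42 and 4.67 in KO (-0.44 ± 0.13, adjusted p = 0.0214). WT library 3 was close to the KO libraries, and the corrected value of -0.12 did not pass. Psmd10, which encodes gankyrin, a chaperone of the ATPase ring, was at 13.2, 14.6 and 13.6 FPKM in WT and 12.9, 11.1 and 12.1 in KO (-0.25 ± 0.08, adjusted p = 0.0291; corrected -0.14, adjusted p = 0.178). With the median coding length Psmd10 passed as lower (-0.26, edgeR, adjusted p = 0.0224), and Psmg1 did not pass (-0.25, adjusted p = 0.166). The call of Psmg1 ended without WT library 1 or 2 or KO library 1, and that of Psmd10 without WT library 2 or 3 or KO library 2 or 3 (edgeR, adjusted p from 0.067 to 0.111).

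The other assembly genes did not pass. Psmg3 and Psmg2 had values of -0.33 and -0.26 (edgeR, adjusted p = 0.0531 and 0.109), with wide intervals. Psmg4 was at 8.81, 8.28 and 8.08 FPKM in WT and 9.57, 9.06 and 8.13 in KO, with overlap (0.03, 95% interval -0.35 to 0.41). Its transcript of 555 bp is the shortest of the members, and its corrected value of 0.51 passed as higher (edgeR, adjusted p = 0.0116). That rise did not pass at the median coding length (0.35, edgeR, adjusted p = 0.0598). Psmd5 had -0.13 (corrected -0.21, adjusted p = 0.0332) and Psmd9 -0.17. Psmd9 lies 5.88 Mb from Pebp1 on chromosome 5, the nearest member, and its level was 2.46, 2.50 and 2.42 FPKM in WT and 2.40, 2.22 and 2.18 in KO.

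**Figure D4:**
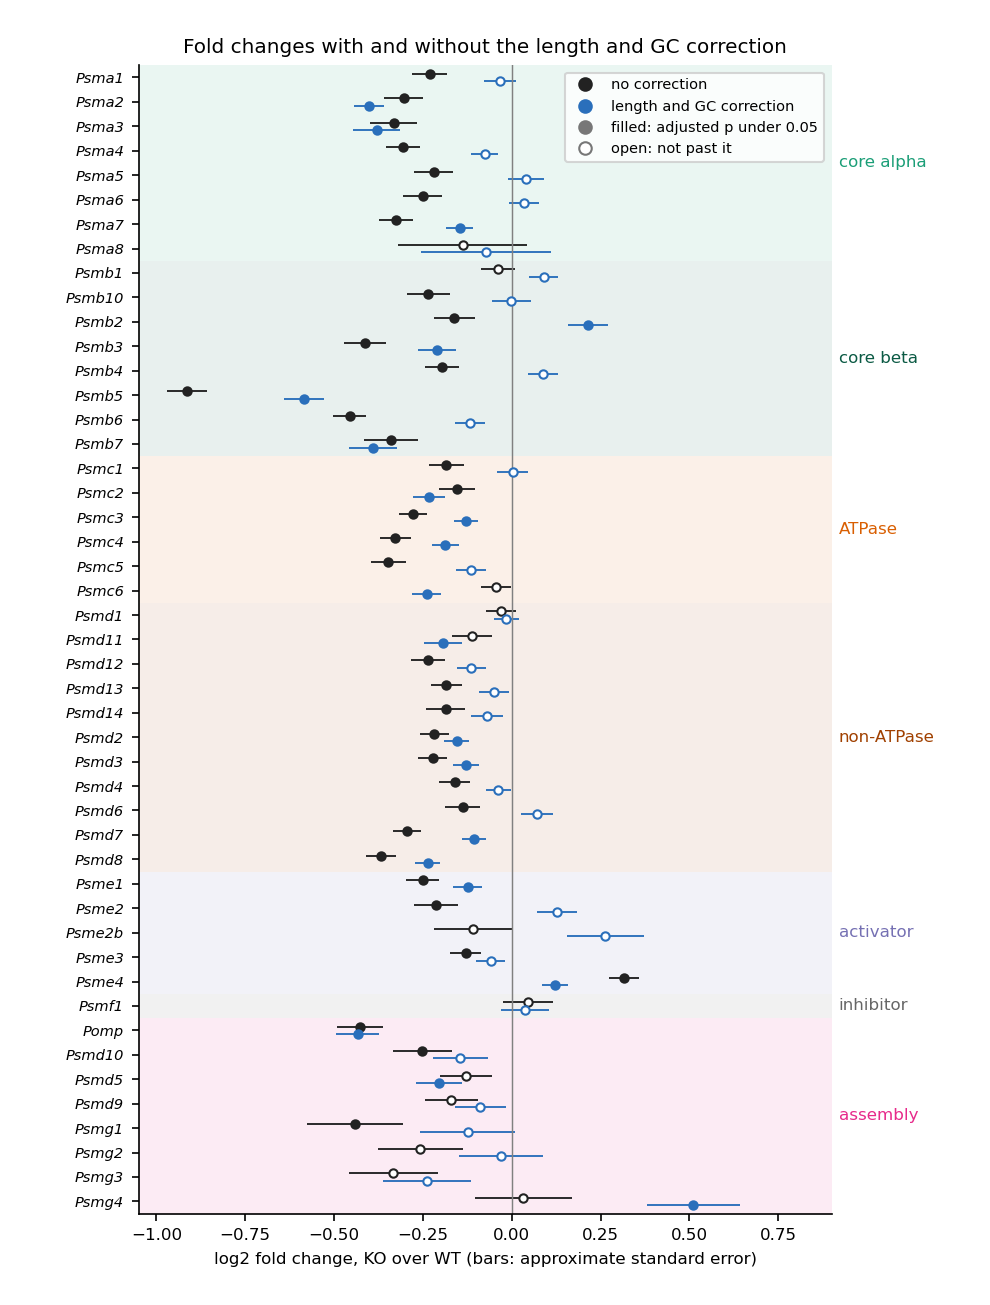
Log2 fold change (KO over WT) of each tested member without (black) and with (blue) the correction for transcript length and GC content; bars are approximate standard errors, and filled circles passed an adjusted p of 0.05. Psmb5 and Pomp stay clearly below 0 in both, Psmb2 changes sign, and Psme4 stays above 0.

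Under all 19 other settings run, 11 of the 34 falls also passed as lower: Pomp, Psma2, Psma3, Psma7, Psmb3, Psmb5, Psmb7, Psmc3, Psmc4, Psmd7 and Psmd8. These include core, ATPase, lid and assembly genes, and none of the 3 activators that fell. The number of regulatory genes that passed as higher was 1 under every setting. It was Psme4 without the correction, with it and at the median coding length. The like count over all tested genes was not made.

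The start regions of the genes were searched because many members moved together. RefSeq windows (GRCm38.p6, 250 bases before to 50 after the start) matched 40 of the 48 members by symbol. The core of the antioxidant response element, which factors of the Nfe2l family bind, was searched as TGACNNNGC on both strands. It was found in 6 members (15.0%), and in 13.99% of all 27025 genes with a window. The CCAAT box (CCAAT, both strands) was in 13 members (32.5%) and 41.1% of all genes, and the core of the interferon-stimulated element (both strands) in 5 members (12.5%) and 3.99% of all genes. The 5 were Psmb3, Psmd4, Psmd9, Psme1 and Psmg4. The antioxidant element core was found in Psmb5 and Psmb6, the core genes with the most negative uncorrected values, in Psme4, the member that rose, and in Psmc6, Psmd12 and Psmd9. The stretches of the first 3 are shown with the matching letters in capitals, for chr14:54617996-54618065 (minus strand), chr11:70525287-70525356 (plus strand) and chr11:30771705-30771776 (plus strand).
Psmb5: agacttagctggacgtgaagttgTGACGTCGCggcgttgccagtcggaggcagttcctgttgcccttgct
Psmb6: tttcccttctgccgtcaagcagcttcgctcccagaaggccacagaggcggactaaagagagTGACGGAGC
Psme4: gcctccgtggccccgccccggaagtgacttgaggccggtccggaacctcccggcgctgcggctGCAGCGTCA
The match starts 47 bases before the RefSeq start in Psmb5, 9 in Psmb6 and, on the other strand, 7 in Psme4, where it runs past that start. The deposited table places these starts elsewhere, and its Psme4 start, 30771726, puts the match inside the gene. These are matches of letters only, found in genes that fell and in the gene that rose.

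Other genes of the ubiquitin and proteasome pathway changed in both directions. Of 31 tested, 10 rose and 7 fell, against 20.3% and 19.4% of all tested genes. Their median transcript length was 3686 bp, longer than that of the members. The median of the list was -0.01 (log2), and 5 were higher and 7 lower with the correction, against 17.0% and 14.6% of all tested genes. Of 6 other proteasome-bound genes, outside the name rule, 2 rose and 2 fell. With the correction 3 were lower and the other 3 did not pass, with a median of -0.14. Sem1, a small lid subunit named here after its values were seen, was at 13.4, 12.98 and 13.5 FPKM in WT and 10.8, 8.03 and 10.1 in KO (-0.52 ± 0.09, edgeR, adjusted p = 0.00129; corrected -0.49). Adrm1, a ubiquitin receptor of the base, was at 13.6, 13.5 and 13.7 FPKM in WT and 11.6, 12.3 and 11.8 in KO (-0.25 ± 0.04, adjusted p = 0.000946; corrected -0.22), and it did not pass at the median coding length (-0.10, adjusted p = 0.0606). Both true subunits were lower in every KO library.

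The genes that rose included Zfand5, an activator of the proteasome, at 5.77, 5.68 and 5.61 FPKM in WT and 8.08, 8.53 and 8.68 in KO (0.51 ± 0.04, edgeR, adjusted p = 4.31e-06; corrected 0.23). Ube3a, a ubiquitin ligase gene, was at 4.60, 4.76 and 4.76 FPKM in WT and 7.64, 6.93 and 8.06 in KO (0.63 ± 0.06, adjusted p = 1.06e-05; corrected 0.28). In both genes every KO library lay above every WT library. Zfand2a, a stress-induced proteasome adaptor, was at 18.1, 17.8 and 17.8 FPKM in WT and 15.6, 15.9 and 15.9 in KO (-0.23 ± 0.04, edgeR, adjusted p = 0.00106; corrected -0.18).

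Of 4 regulators of the subunit genes, 2 rose, 1 fell and 1 did not pass, against 20.3% higher and 19.4% lower of all tested genes. With the correction 1 was lower and 3 did not pass. Nfe2l1, named like Nfe2l2 and Ngly1 after its values were seen, fell (-0.13 ± 0.04, edgeR, adjusted p = 0.0305; corrected -0.14). The libraries of Nfe2l1 overlapped, at 54.8, 58.2 and 57.0 FPKM in WT and 52.9, 56.0 and 52.1 in KO. Ddi2, the protease that activates its product, was at 15.0, 14.8 and 15.3 FPKM in WT and 18.7, 18.4 and 19.5 in KO (0.28 ± 0.04, adjusted p = 0.000397; corrected 0.08, adjusted p = 0.114). Ngly1 rose from 3.19, 3.04 and 2.70 FPKM in WT to 3.39, 3.51 and 4.18 in KO (0.26 ± 0.09, edgeR, adjusted p = 0.0395; corrected 0.19, adjusted p = 0.0789). Nfe2l2 did not pass (-0.01).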

How the data were processed

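Messenger RNA was measured in 6 libraries of M-CSF-treated mouse bone marrow macrophages by poly(A)-selected sequencing with a dUTP strand protocol, per the labels' protocols. The submitters' processing notes name cutadapt 1.9, HISAT2 2.0.4 and StringTie 1.3.4d. The genome build, and whether strand was used in counting, were not given in the sources used here. The deposited table holds the authors' estimated counts and their FPKM values, 1 column of each per library. Gene models and lengths were taken from GENCODE M21. Of 27458 genes, 27382 matched it by identifier.

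Estimated counts were rounded and tested with edgeR 4.0.16 (TMM scaling, quasi-likelihood test, Benjamini-Hochberg threshold 0.05) in R 4.3.3, for genes whose mean FPKM was 1 or more. Values of 4 were more frequent in the count columns (5769) than values of 3 (3204) or 5 (2041), so counts divided by 4 were run as an alternative. A standard error is the log2 fold change divided by the root of its F statistic and is approximate. The 95% intervals use 4 residual degrees of freedom alone, without those that the p-values borrow from other genes. The correction fits each library's trend on length and GC content (loess, span 0.3). Pseudogenes were matched with minimap2 2.31. Alternatives were limma 3.58.1 on log2(FPKM + 1) and log2(FPKM + 0.1), DESeq2 1.42.0, median-ratio scaling, filters, a replicate block, and leaving out each library. Adding pseudogene counts, with and without the correction, and using the median coding length were chosen after seeing the data. The fits were tested on simulated data.

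The members and gene lists were chosen with earlier results of these data known. Values in every library are given for the proteolytic subunits, for Pomp, for the 4 largest changes past the threshold and the smallest change in each role, and for members whose call changed direction with the correction; other genes of the pathway are the 6 with the smallest p, of which 1 is not reported here. A few others are given in full as well.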

Additional observations from a re-analysis of the deposited data

How the results depend on the processing

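Falls of the members depended most on the correction for transcript length and GC content, and the cause of that dependence was not tested. From 34 lower and 1 higher, the correction gave 18 lower and 3 higher, with a replicate block added 17 and 3, with pseudogene counts added 18 and 3, and with the median coding length 20 lower. Core falls went from 14 to 6 in the first 3 of these settings, which also gave 1 core and 1 assembly gene as higher (from 0), and to 9 with the median coding length. Regulatory falls went from 17 to 10 in those 3 settings, in both limma fits and with no filter on low values, and to 9 with the median coding length. Assembly falls went from 3 to 1 with no filter and with the block and correction together. Over all roles, each limma fit gave 25 members lower, and the fit with no filter on low values gave 24. Leaving out each library in turn gave 26 to 30 falls, of which 11 to 16 were regulatory (11 without WT library 3) and 1 to 3 were assembly genes (1 without WT library 2). Without any 1 library 24 of the 34 falls still passed in every case, a count that was not made over all tested genes. Over all genes, limma on log2(FPKM + 1) made 2770 higher and 1639 lower, against 2364 and 2253.

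Some members changed sign. The 11 that passed as lower under every setting could not be among them, by the way they were chosen. With the correction the log2 values were 0.040 for Psma5, 0.034 for Psma6, 0.090 for Psmb1, 0.21 for Psmb2, 0.088 for Psmb4, 0.0026 for Psmc1, 0.072 for Psmd6, 0.13 for Psme2 and 0.26 for Psme2b. Adding pseudogene counts as well gave 0.055 for Psma5, 0.035 for Psma6, 0.091 for Psmb1, 0.0012 for Psmb10, 0.21 for Psmb2, 0.087 for Psmb4, 0.072 for Psmd6, 0.13 for Psme2 and 0.26 for Psme2b. The median coding length gave 0.025 for Psmb1, 0.023 for Psmb2, 0.0087 for Psmd13, 0.039 for Psmd2, 0.016 for Psmd4, 0.0033 for Psmd6, 0.012 for Psme2, 0.057 for Psme2b, 0.093 for Psme3 and 0.043 for Psmd9. In limma the values were 0.015 for Psmb1, 0.011 for Psmc6 and 0.023 for Psmd1 with a pseudocount of 0.1, and 0.015 for Psmb1, 0.010 for Psmc6 and 0.022 for Psmd1 with a pseudocount of 1. Leaving out each library moved Psmg4 between -0.032 and 0.099.

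Deviations of libraries with the same replicate number correlated at 0.02, 0.19 and -0.04, so the numbers were not taken to pair libraries. With the replicate block 34 members were lower and 1 higher, and 2407 genes rose and 2294 fell. Core, regulatory and assembly falls under the block were 14, 17 and 3. The block with the correction gave 0.039 for Psma5, 0.033 for Psma6, 0.090 for Psmb1, 0.21 for Psmb2, 0.087 for Psmb4, 0.0016 for Psmc1, 0.072 for Psmd6, 0.13 for Psme2 and 0.25 for Psme2b.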
